A study of Mus musculus with 5 samples.

Results

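The glucocorticoid receptor and 6 genes widely used as readouts of its activity were followed in samples labelled as mouse peritoneal macrophages. The genes were the receptor gene Nr3c1 and the target genes Fkbp5, Tsc22d3, Klf9, Per1, Sgk1 and Anxa1. The members were all probe sets, dim ones included, whose symbol in the platform annotation, or the current name of the same Entrez gene, was one of these 7. The 7 genes, of 8251 named by a single symbol, came to 10 probe sets of the 12488 on the Affymetrix MG-U74Av2 array, a chip that reads each transcript with a set of short oligonucleotides. Nr3c1, Fkbp5, Tsc22d3, Per1 and Sgk1 had 1 probe set each, Klf9 had 2 and Anxa1 had 3.

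RNA was hybridised to 5 arrays in 3 groups. The poly IC plus ethanol group was 2 pools from mice given 0.1 mg poly IC per mouse and 6 g/kg ethanol, an acute oral dose. The poly IC group was 2 pools from mice given poly IC alone, with a dose of 0.1 mg per mouse stated for pool 2 and none stated for pool 1. The naive group was 1 untreated control, so its spread was not measured and was taken to be that of the treated pools. The mice of all 4 treated pools were females of a C57Bl/6 x C3H F1 cross aged 12 weeks, while sex and age are not stated for the naive sample. Poly IC is a synthetic double-stranded RNA that stands in for viral RNA, and the study asked how ethanol alters the genes it induces. No array held cells from mice given ethanol alone, so an effect of ethanol outside poly IC treatment could not be measured. How many mice formed a pool, and when cells were harvested, is not stated. P-values rest on the spread between pools, not between mice. The spread of each probe set was estimated with help from the other probe sets, with 2 residual and 6.88 prior degrees of freedom.

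The glucocorticoid receptor waits in the cytoplasm in a complex with heat shock proteins and immunophilins. When a glucocorticoid such as corticosterone binds, it enters the nucleus, where it can bind glucocorticoid response elements and raise nearby genes, and where it also restrains NF-κB. In macrophages it is best known for damping inflammatory gene expression, and its direct targets are often used to gauge how active it is. Hormone levels were not analysed here.

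Promoter windows from RefSeq, on the GRCm38.p6 mouse build, were searched for the letters of the receptor's own element and of 3 other promoter motifs. Each window covers 250 bases before to 50 bases after a start site. Windows of 6 of the genes were searched, and Nr3c1 was left out of the search. The windows of 3 genes are shown. Those of Fkbp5 and Klf9 belong to the genes whose signals were higher with ethanol. The third, of Sgk1, was the 1 window searched that held a full glucocorticoid response element, and the Sgk1 signal was level on all 5 arrays. Capitals mark every match to a motif named after the sequences.
Fkbp5, chr17:28486100-28486399, minus strand: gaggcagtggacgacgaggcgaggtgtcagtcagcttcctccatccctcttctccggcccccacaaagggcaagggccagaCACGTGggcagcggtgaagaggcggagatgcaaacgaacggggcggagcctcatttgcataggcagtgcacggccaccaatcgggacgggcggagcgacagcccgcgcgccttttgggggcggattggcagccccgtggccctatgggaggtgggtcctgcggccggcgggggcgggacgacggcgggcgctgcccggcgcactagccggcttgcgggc
Klf9, chr19:23140976-23141275, plus strand: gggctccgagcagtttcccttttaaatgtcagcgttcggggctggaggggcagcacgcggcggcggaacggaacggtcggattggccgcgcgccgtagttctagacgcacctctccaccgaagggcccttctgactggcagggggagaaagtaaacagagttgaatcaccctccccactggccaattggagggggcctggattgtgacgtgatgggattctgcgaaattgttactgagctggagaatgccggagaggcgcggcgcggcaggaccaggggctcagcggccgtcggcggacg
Sgk1, chr10:21993640-21993939, plus strand: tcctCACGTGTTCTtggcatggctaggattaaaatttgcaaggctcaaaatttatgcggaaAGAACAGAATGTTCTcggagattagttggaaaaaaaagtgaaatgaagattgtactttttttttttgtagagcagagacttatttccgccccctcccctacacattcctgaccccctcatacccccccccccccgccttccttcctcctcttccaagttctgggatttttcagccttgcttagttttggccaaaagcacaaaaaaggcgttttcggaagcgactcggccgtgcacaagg

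The full element is the arm AGAACA, 3 free bases and the reverse complement of the arm. Searched on both strands, it was present in 0.00913% of all 32851 windows, and the Sgk1 window carried it as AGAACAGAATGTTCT at position -189 from the start site. A single arm was present in 19% of windows. In the Sgk1 window an arm on the minus strand overlaps an E-box, the clock factor site CACGTG, at position -246, and E-boxes were present in 7.15% of windows. Sgk1 has 6 windows in the table, and the other 5 had no full element. The Fkbp5 window held an E-box at position -169 and no other match. The Klf9 window held no match to any motif searched, which also included the cAMP response element TGACGTCA, present in 1.79% of windows, and TATAAA, present in 13.6%. A Per1 window held an E-box at position -166, and the Anxa1 window held TATAAA at position -32. A single arm was present in a Tsc22d3 window at position -185. Other Sgk1 windows held a single arm at positions -195 and -13 and TATAAA at positions -28 and -11. A match describes the letters of the window alone, and no binding was measured. Elements outside the windows were not searched for, so a window without a match does not show that a gene lacks the element.

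Of the 10 probe sets, 9 passed a filter that kept probe sets with a mean signal at or above the 40th percentile of 513. Only the Tsc22d3 probe set fell below it. Signals are those of the Affymetrix software on a linear scale, and all differences and their standard errors (SE) are on the log2(signal + 250) scale. That scale understates the change of dim genes, and global scaling hides any change in total RNA. In poly IC plus ethanol against poly IC, 3 of the 9 tested member probe sets were called at an adjusted p under 0.05 in limma, all 3 higher, where 8.1% of the 7453 probe sets tested were called in either direction and 4.33% were called higher. In poly IC against naive, 3 of 9 were called, 1 higher and 2 lower, where 29.2% of tested probe sets were called, 11.1% higher and 18.2% lower. In poly IC plus ethanol against naive, 3 of 9 were called, 2 higher and 1 lower, where 15% of tested probe sets were called, 7.78% higher and 7.22% lower. Klf9 and Anxa1 supply several of the 9 probe sets, so these are not independent units. Read by the brightest probe set of each of 6 tested genes, 2 were higher and 0 lower in poly IC plus ethanol against poly IC. The gene counts were 1 higher and 1 lower in poly IC against naive, and 2 higher and 1 lower in poly IC plus ethanol against naive. The 3 comparisons share arrays and are not independent of each other.

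**Figure D1:**
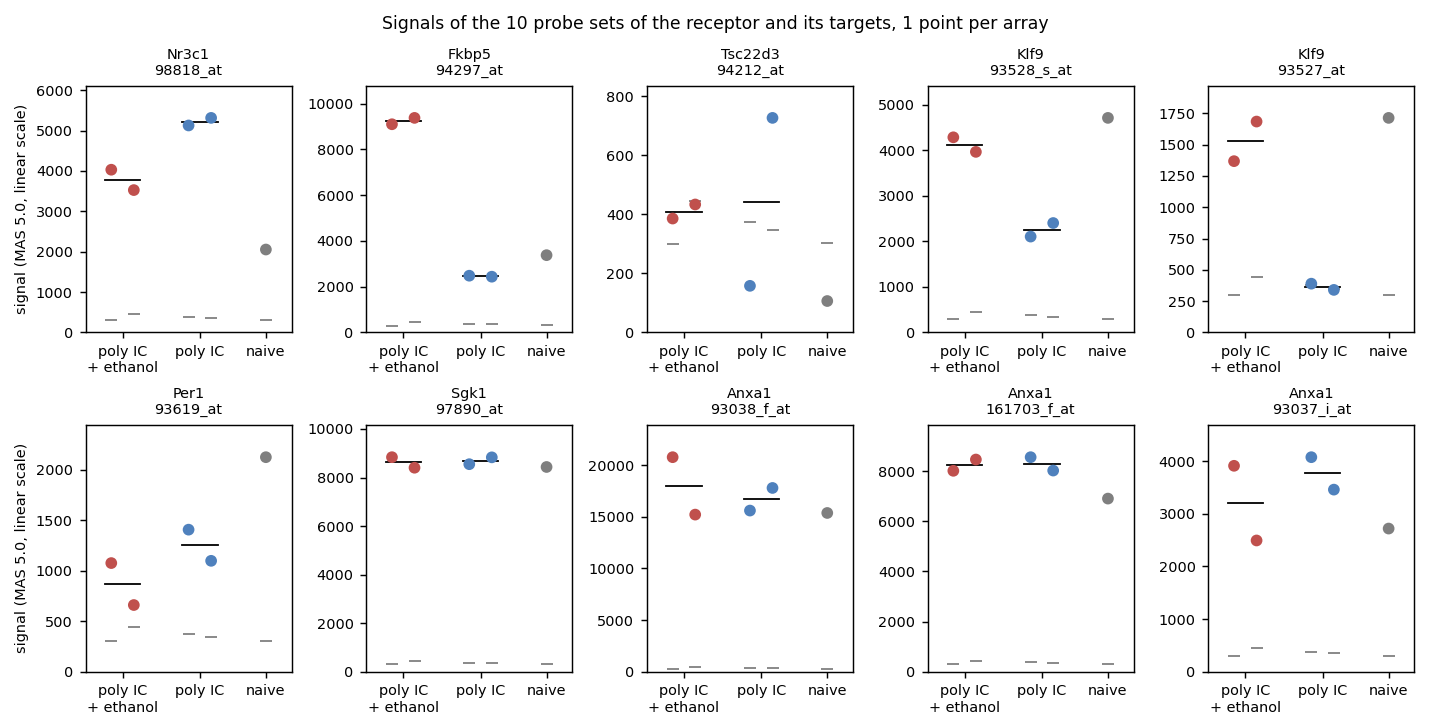
Signal of each of the 10 probe sets on each array, with the Affymetrix signal on a linear axis from 0. Points are single arrays, black lines are group means over 2 pools, and short grey dashes mark the brightest unspiked control probe set of that array. Fkbp5 stands apart on both ethanol arrays, Klf9 is low on both poly IC arrays, and the Tsc22d3 points lie around the control level.

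The receptor gene itself was higher after poly IC. Nr3c1 (98818_at) had signals of 4029.4 and 3525.0 in the poly IC plus ethanol pools, 5125.6 and 5313.3 in the poly IC pools and 2052.6 in the naive sample. Both poly IC arrays were the highest, both ethanol arrays were intermediate and the naive array was the lowest, with no overlap between groups. Nr3c1 was 1.25 higher in poly IC than in naive (SE 0.20, limma, adjusted p = 0.0018), a ratio of mean signals of 2.54, and this call held in all 14 alternative analyses. With ethanol it was 0.80 higher than in naive (SE 0.20, limma, adjusted p = 0.0275). That second call held in 10 of 14 alternatives. It was lost without the intensity trend in the variance, with only the arrays of the groups compared, and without either poly IC array. Neither poly IC array enters the difference itself, but both inform the spread. Between poly IC plus ethanol and poly IC the difference was -0.44 (95% interval -0.81 to -0.07, limma, adjusted p = 0.137) and did not pass. In these bulk samples, fewer cells of a type and less RNA per cell cannot be told apart. The summed signal of 16 neutrophil marker genes followed the same order, with 89322 and 74811 in the poly IC plus ethanol pools, 180929 and 145291 in the poly IC pools and 51230 in the naive sample. Of the 14 tested neutrophil genes, 9 were called higher and 1 lower in poly IC against naive, so the sum hides opposite directions. Of all tested probe sets, 11.1% were called higher and 18.2% lower in that comparison. Prtn3 read 3915.7 and 3579.1 in the poly IC pools and 11429.6 in the naive sample. Padi4 read 19304.0 and 19658.7 in the poly IC pools and 25558.8 in the naive sample. Both genes are named after their values were seen. At most 1 of them can be the gene called lower, and Prtn3 had the larger drop. The part of neutrophils in the Nr3c1 result was not tested.

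Fkbp5, which encodes the immunophilin FKBP51, a co-chaperone that lowers the receptor's affinity for hormone and is itself a receptor target, showed the largest ethanol difference of the members. Its probe set (94297_at) read 9104.0 and 9382.3 in the poly IC plus ethanol pools, against 2479.3 and 2435.6 in the poly IC pools, and 3377.4 in the naive sample. The 2 pools of each treated group lay close together, and both ethanol pools stood far above the poly IC pools and the naive sample. Fkbp5 was 1.81 higher in poly IC plus ethanol than in poly IC (SE 0.15, 95% interval 1.46 to 2.16, limma, adjusted p = 0.00089), a ratio of mean signals of 3.76. Among the 7453 tested probe sets this was the third highest difference, rank 3 counted from the top. The call held in all 15 alternatives, with differences between 1.57 and 1.89. Ethanol-treated pools were also above the naive sample, by 1.39 (SE 0.19, limma, adjusted p = 0.00121), a ratio of 2.74. Poly IC alone was 0.42 below naive and did not pass (SE 0.19, limma, adjusted p = 0.127).

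Klf9, a Krüppel-like zinc finger transcription factor that the receptor induces in many tissues, was lower after poly IC and stood near the naive level when ethanol was also given. Its brighter probe set (93528_s_at) read 4281.7 and 3962.0 in the poly IC plus ethanol pools, 2102.6 and 2400.3 in the poly IC pools and 4707.9 in the naive sample. The dimmer one (93527_at) read 1368.3 and 1684.8 with ethanol, 389.2 and 339.5 in poly IC and 1714.1 in naive. On both probe sets the poly IC arrays were the lowest, the ethanol arrays were between them and the naive array, and no groups overlapped.

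In poly IC plus ethanol against poly IC the brighter Klf9 probe set was 0.81 higher (SE 0.17, limma, adjusted p = 0.0228), a ratio of 1.83. The dimmer Klf9 probe set was 1.53 higher (SE 0.25, limma, adjusted p = 0.0096), a ratio of 4.19, and ranked 21 from the top of all tested probe sets. The size of that ratio rests on poly IC signals that were 1.04 and 0.979 times the brightest unspiked control of their arrays. With an offset of 50 in place of 250 the difference was 1.92, and with 1000 it was 0.89. Leaving out the poly IC pool 1 array gave 0.72 for the brighter Klf9 probe set (limma, adjusted p = 0.16). Leaving out the poly IC pool 2 array gave 0.89 for the brighter one (limma, adjusted p = 0.116) and 1.47 for the dimmer (limma, adjusted p = 0.0599), so the calls were lost while the differences stayed. The brighter probe set's call was also lost with median-centred arrays, where the difference was 0.71 (limma, adjusted p = 0.0575), with no filter (limma, adjusted p = 0.0523) and without the intensity trend in the variance (limma, adjusted p = 0.0863).

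Against naive, Klf9 was lower in poly IC by 0.99 on the brighter probe set (SE 0.20, limma, adjusted p = 0.00681) and by 1.68 on the dimmer one (SE 0.30, limma, adjusted p = 0.00349). Both calls held in every alternative that kept the probe set. Poly IC plus ethanol differed from naive by -0.18 on the brighter probe set (95% interval -0.65 to 0.28) and by -0.15 on the dimmer one (95% interval -0.84 to 0.54), and neither passed. These intervals leave room for a deficit or a small excess.

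Markers of B cells moved across the arrays in an order like that of Klf9. The summed signal of 14 B cell marker genes was 230226 and 247428 in the poly IC plus ethanol pools, 180297 and 164502 in the poly IC pools and 380718 in the naive sample. Of 12 tested B cell genes, 5 were higher and 0 lower in poly IC plus ethanol than in poly IC, with a median difference of 0.71. Of all tested probe sets, 4.33% were called higher and 3.77% lower there. In poly IC against naive 0 of the 12 B cell genes were higher and 11 were lower, where the shares were 11.1% and 18.2%. The B cell sums of both ethanol pools lay between those of the poly IC pools and that of the naive sample. The part of B cells in the Klf9 and Fkbp5 results was not tested.

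**Figure D2:**
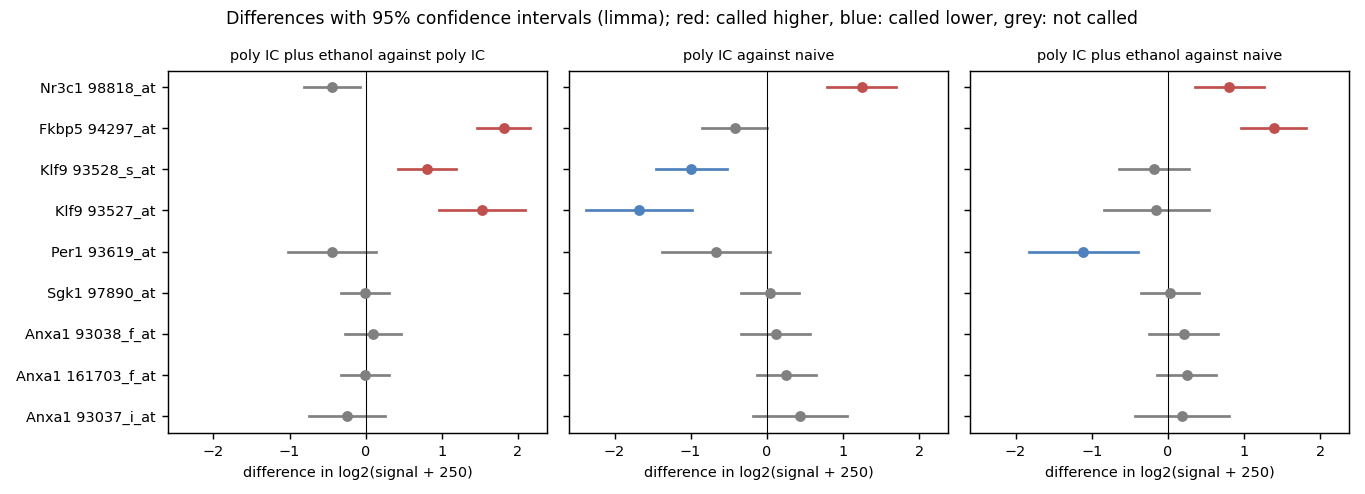
Differences in log2(signal + 250) with 95% confidence intervals from limma for the 9 tested probe sets, in 3 comparisons. Red marks a probe set called higher, blue one called lower and grey one not called. In poly IC plus ethanol against poly IC only Fkbp5 and the 2 Klf9 probe sets are red, and in poly IC against naive Nr3c1 is red and both Klf9 probe sets are blue.

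Per1, a period gene of the circadian clock that glucocorticoids induce through an element in its promoter region, had its lowest signals in the ethanol pools. Its probe set (93619_at) read 1074.8 and 659.6 in the poly IC plus ethanol pools, 1405.5 and 1097.1 in the poly IC pools and 2122.7 in the naive sample. The ethanol arrays were the lowest and the naive array the highest, without overlap, but the ethanol pool 1 array lay close to the poly IC pool 2 array. The difference of -0.44 between poly IC plus ethanol and poly IC did not pass (SE 0.26, limma, adjusted p = 0.338), nor did that of -0.67 between poly IC and naive (SE 0.31, limma, adjusted p = 0.148). Per1 was called 1.11 lower in poly IC plus ethanol than in naive (SE 0.31, limma, adjusted p = 0.046). That call held in 4 of 13 alternatives. It was lost without the ethanol pool 2 array, where Per1 fell by 0.84 (limma, adjusted p = 0.0602), and without the poly IC pool 1 (limma, adjusted p = 0.0715) or pool 2 array (limma, adjusted p = 0.0651).

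Sgk1, a serum- and glucocorticoid-regulated kinase that controls ion transport and survival signalling, did not pass in any comparison. Its probe set (97890_at) read 8838.4 and 8404.3 in the poly IC plus ethanol pools, 8549.8 and 8832.1 in the poly IC pools and 8435.0 in the naive sample. The poly IC plus ethanol pools overlapped with both other groups, while the naive sample lay just below both poly IC pools. The difference between poly IC plus ethanol and poly IC was -0.01, with a 95% interval of -0.32 to 0.30. A change as large as that of Fkbp5 lies outside this interval.

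Anxa1 encodes annexin A1, a phospholipid-binding protein that glucocorticoids induce in myeloid cells and that acts on formyl peptide receptors. Its brightest probe set (93038_f_at) read 20759.4 and 15202.5 in the poly IC plus ethanol pools, 15593.2 and 17781.8 in the poly IC pools and 15360.9 in the naive sample. The 161703_f_at probe set read 8011.4 and 8461.1 with ethanol, 8554.4 and 8021.1 in poly IC and 6903.2 in naive, and 93037_i_at read 3911.7 and 2493.0, then 4075.3 and 3459.0, then 2719.3 in the same groups. The 2 treated groups overlapped on all 3 probe sets. Differences between poly IC plus ethanol and poly IC were 0.09, -0.01 and -0.25, and those of poly IC against naive were 0.11, 0.25 and 0.43, none of which passed. Probe sets whose names end in _f_at may also match related transcripts.

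Tsc22d3 encodes GILZ, a leucine zipper protein through which glucocorticoids restrain NF-κB, and it could not be measured reliably. Its probe set (94212_at) read 385.9 and 433.6 in the poly IC plus ethanol pools, 157.8 and 727.1 in the poly IC pools and 106.3 in the naive sample. These were 1.29, 0.977, 0.42, 2.1 and 0.352 times the brightest unspiked control of the same arrays, so only the ethanol pool 1 and poly IC pool 2 arrays stood above it. The poly IC pool 2 array also had the highest 18S ribosomal RNA signal, 66548 against 5113 to 19415 on the other treated arrays, and the part of that in the Tsc22d3 reading was not tested. In a fit without the filter, Tsc22d3 differed by 0.06 between poly IC plus ethanol and poly IC (limma, adjusted p = 0.974). The value was 0.69 without the poly IC pool 2 array and -0.57 without the pool 1 array, so the sign turned on which pool was used.

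**Figure D3:**
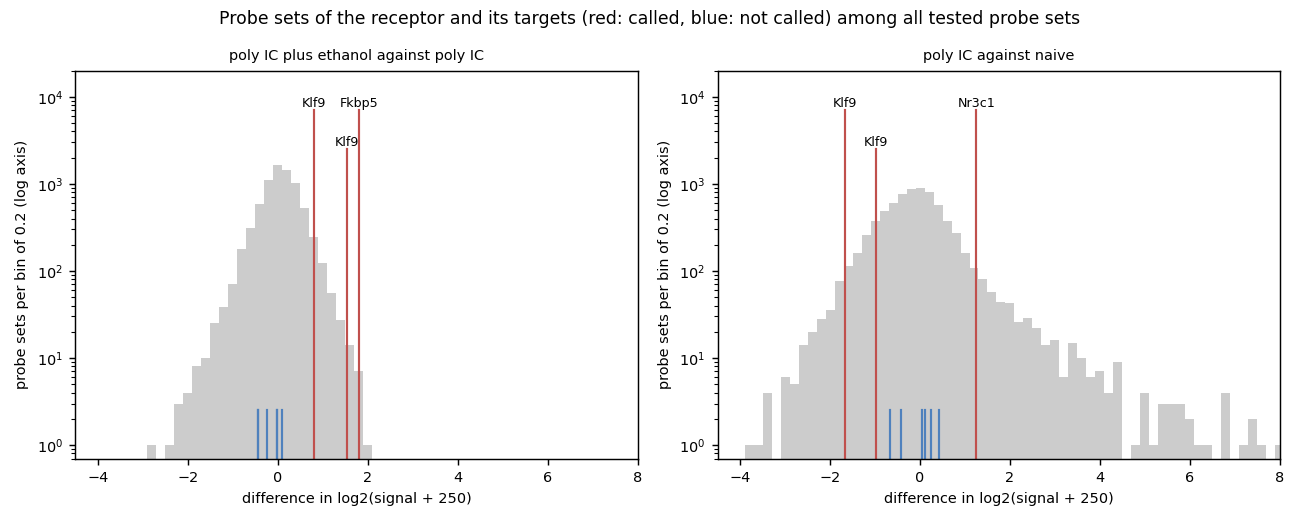
Distribution of differences in log2(signal + 250) over the 7453 tested probe sets, in bins of 0.2 with a log axis of counts, for 2 comparisons. Tall red lines mark called probe sets of the receptor and its targets and short blue lines those not called. Fkbp5 lies at the upper edge of the ethanol distribution, while Klf9 and Nr3c1 lie well inside the wider poly IC distribution.

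By likeness of profile over the 5 arrays, measured as the root mean square difference of mean-centred log2(signal + 250) values, the closest genes to Nr3c1 were Fcgr2b at 0.047, Hp at 0.048 and Eng at 0.053. Fcgr2b encodes the inhibitory Fc receptor for IgG, Hp encodes haptoglobin and Eng encodes endoglin. The closest to Klf9 were Zfp651 at 0.028, Rassf2 at 0.051 and Asah1, which encodes acid ceramidase, at 0.058. Those closest to Per1 were Cdk1 at 0.10, Pdcd6ip at 0.12 and Akt1s1 at 0.12. Fkbp5 had no neighbour as near: the smallest distances were 0.28 for Sin3b, 0.32 for Hspa14 and 0.34 for Gadd45a. These distances describe 5 arrays and carry no test. Sgk1 and Anxa1 spanned 0.07 and 0.44 log2 units over the arrays, under the minimum of 1 set for this search. Several neighbours rest on signals that were not above the control level: Zfp651 read 223.5 and 313.2 in the poly IC pools and Sin3b 302.7 and 77.3, where the control levels were 375.7 and 346.8. In ethanol pool 2, Cdk1 at 246.0 and Akt1s1 at 433.7 lay below the control level of 443.8. Their distances and ranks are therefore uncertain.

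Of the chaperones that hold the receptor ready for hormone, Hspa8, Hsp90aa1 and Stip1 were higher in poly IC than in naive and lower in poly IC plus ethanol than in poly IC. All 12 chaperone and co-chaperone genes on the array passed the filter, and each gene of this and the following lists is read by its brightest tested probe set. In poly IC plus ethanol against poly IC 0 were higher and 4 lower, with a median difference over the 12 of -0.38 against 0.07 over all tested probe sets. The share of all probe sets called lower was 3.77%. Hspa8, the constitutive Hsp70, read 32082.5 and 27235.1 in the poly IC plus ethanol pools and 54345.4 and 46140.5 in the poly IC pools, and fell by 0.76 (SE 0.13, limma, adjusted p = 0.01). Hsp90aa1, the inducible Hsp90 that binds the receptor, read 35987.3 and 21410.7 with ethanol and 51913.3 and 57237.7 in poly IC, and fell by 0.97 (SE 0.20, limma, adjusted p = 0.0242). Stip1, which bridges Hsp70 and Hsp90, fell by 0.85 (limma, adjusted p = 0.0294). The other gene called lower was Ppid, a cyclophilin co-chaperone of the receptor, which was -0.76 (limma, adjusted p = 0.032) and is named here after its value was seen.

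These chaperone calls depended on the analysis and on the poly IC arrays. Without the intensity trend in the variance 0 of the 12 genes were called in poly IC plus ethanol against poly IC, and without the filter only Hspa8 was. Without poly IC pool 1, 0 of the 12 chaperone genes were called in either direction in poly IC plus ethanol against poly IC, and without pool 2 only Hspa8 was (limma, adjusted p = 0.035). In poly IC against naive, Hspa8 was 0.81 higher (limma, adjusted p = 0.00436), Stip1 was 1.13 higher (limma, adjusted p = 0.00632) and Hsp90aa1 was 1.02 higher (limma, adjusted p = 0.0147). The Hsp90aa1 call was lost without poly IC pool 2 (limma, adjusted p = 0.0518), without the filter (limma, adjusted p = 0.0607), without the trend (limma, adjusted p = 0.0809) and with quantile normalization (limma, adjusted p = 0.0555). The Hspa8 call was lost without the trend (limma, adjusted p = 0.0517). The 2 genes of the list called lower there, Dnajb1 at -0.95 and Stub1 at -0.82, are also named after their values were seen, and both calls were lost without poly IC pool 1 (limma, adjusted p = 0.101 for Dnajb1 and 0.0835 for Stub1), that of Stub1 also without pool 2 (limma, adjusted p = 0.0669) and that of Dnajb1 also without the filter (limma, adjusted p = 0.0525). The list's median in that comparison was 0.41, against -0.13 over all tested probe sets.

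Among 11 tested coregulators, 0 were called higher and 0 lower in poly IC plus ethanol against poly IC. Nrip1, a corepressor of nuclear receptors, read 10474.3 and 9312.8 in the poly IC plus ethanol pools, 6236.6 and 6816.2 in the poly IC pools and 2252.0 in the naive sample. The groups did not overlap, and the ethanol difference of 0.58 fell just short (SE 0.15, limma, adjusted p = 0.0507), while Nrip1 was 1.44 higher in poly IC than in naive (limma, adjusted p = 0.000582). Crebbp, the acetyltransferase CBP, was 0.90 lower in poly IC than in naive (limma, adjusted p = 0.0129), a call lost without poly IC pool 1 (limma, adjusted p = 0.0792).

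Local hormone supply was represented by 3 tested genes. Hsd11b1, the enzyme that regenerates active glucocorticoid inside cells, read 1729.2 and 1436.4 in the poly IC plus ethanol pools, 1751.6 and 1188.5 in the poly IC pools and 1356.0 in the naive sample, and was not called. H6pd, which supplies that enzyme with NADPH, read 6180.4 and 8459.2 with ethanol, 3718.4 and 3643.4 in poly IC and 7435.4 in naive. It was 0.93 higher in poly IC plus ethanol than in poly IC (SE 0.18, limma, adjusted p = 0.0181) and 0.97 lower in poly IC than in naive (SE 0.22, limma, adjusted p = 0.0106). The H6pd ethanol call was lost without poly IC pool 1 (limma, adjusted p = 0.0926), without pool 2 (limma, adjusted p = 0.124) and without the trend (limma, adjusted p = 0.0921), and the call against naive missed narrowly without pool 2 (limma, adjusted p = 0.0501).

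A wider list of genes known to be induced by glucocorticoids in other settings was also read. In poly IC plus ethanol against poly IC, 4.33% of all tested probe sets were called higher and 3.77% lower. Of the 28 tested genes of this list, 1 was higher and 4 lower there, with a median of -0.01. The gene called higher was Sesn1, a stress-induced sestrin, which read 3506.4 and 3134.8 in the poly IC plus ethanol pools, 923.8 and 996.9 in the poly IC pools and 13403.1 in the naive sample. Sesn1 was 1.56 higher with ethanol (SE 0.17, limma, adjusted p = 0.00179), a call held in all 15 alternatives, yet both ethanol pools stayed below the naive sample. The summed B cell markers given above ran in the same order as Sesn1, and their part in the Sesn1 result was not tested.

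The genes called lower with ethanol were Cebpd, Cebpb, Lcn2 and Zfp36, of which the last 2 are named after their values were seen. Cebpd, an acute-phase transcription factor, read 31031.4 and 30667.1 in the poly IC plus ethanol pools and 53340.3 and 58883.3 in the poly IC pools, and fell by 0.86 (SE 0.11, limma, adjusted p = 0.00358). Its relative Cebpb fell by 0.75 (SE 0.12, limma, adjusted p = 0.0096), a call lost without poly IC pool 2 (limma, adjusted p = 0.0629) or the filter (limma, adjusted p = 0.054). Lcn2, a neutrophil granule and macrophage protein that is also in the neutrophil list, fell by 0.80 (limma, adjusted p = 0.0459), and Zfp36, which destabilises cytokine mRNA, fell by 0.50 (limma, adjusted p = 0.0363). A second Lcn2 probe set did not pass, with an ethanol difference of 0.11 (limma, adjusted p = 0.85). Il1r2 was not called by its brightest probe set. A dimmer Il1r2 probe set was called lower, with an ethanol difference of -1.14 (limma, adjusted p = 0.0255), and is named after its value was seen. The Lcn2 and Zfp36 calls were lost without ethanol pool 2 (limma, adjusted p = 0.0906 for Lcn2 and 0.0529 for Zfp36) and without either poly IC pool (limma, adjusted p of 0.251 and 0.166 for Lcn2, 0.0748 and 0.261 for Zfp36). Counts over the 28 genes were 1 higher and 2 lower without poly IC pool 1, 1 higher and 1 lower without pool 2, and 1 higher and 1 lower without the filter. Without the variance trend they were 1 higher and 0 lower, and Cebpd was among the calls lost (limma, adjusted p = 0.0746). The neutrophil list had 0 of 14 tested genes higher and 5 lower with ethanol, with a median of -0.90. Of all tested probe sets, 4.33% were called higher and 3.77% lower in that comparison. The part of neutrophils in these results was not tested.

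In poly IC against naive, 12 of the 28 were higher and 8 lower, with a median of 0.41, where 11.1% of all tested probe sets were called higher and 18.2% lower. The genes with the largest statistics were Mt2, Mt1 and Nfkbia, all of which are also induced by inflammatory signals. Mt2, a metallothionein, read 134545 and 139239 in the poly IC plus ethanol pools, 141873 and 150472 in the poly IC pools and 1984.9 in the naive sample. It was 6.03 higher in poly IC than in naive (SE 0.11, limma, adjusted p = 8.2e-09), and -0.09 with ethanol, which did not pass. Mt1 was 3.75 higher and Nfkbia, the NF-κB inhibitor IκBα, was 2.63 higher than in naive, and their ethanol differences of -0.08 and 0.13 did not pass.

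**Figure D4:**
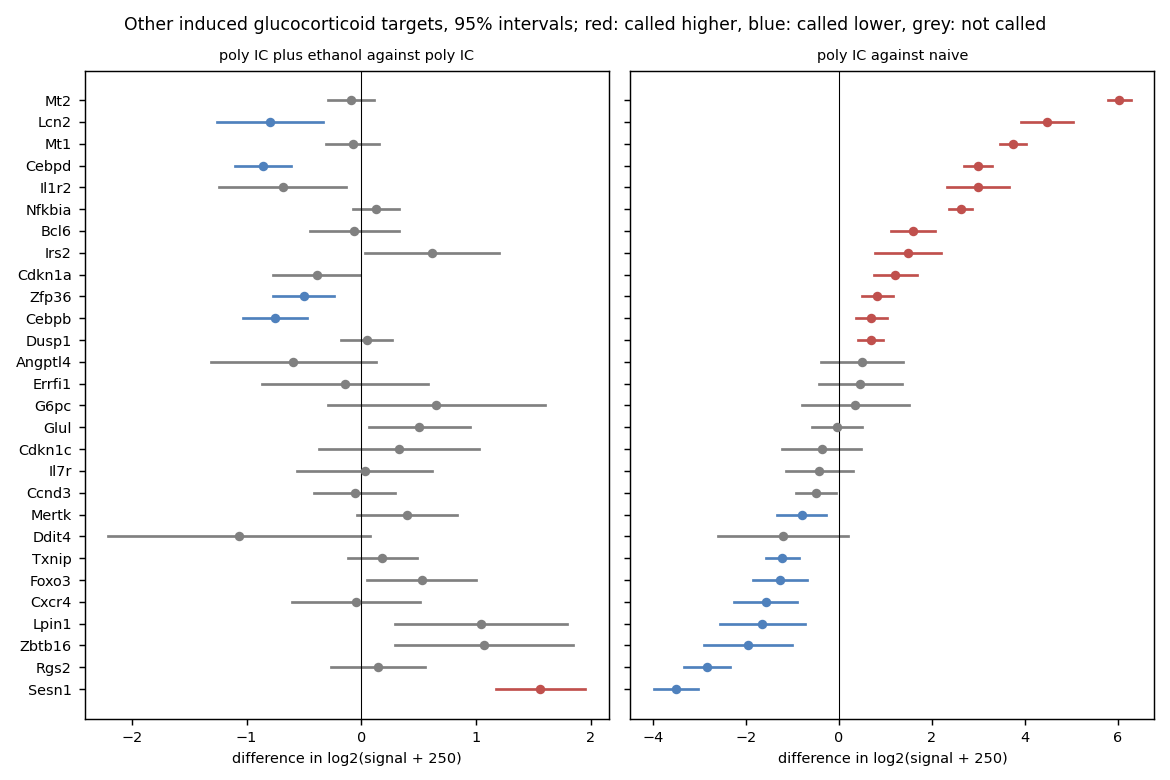
Differences in log2(signal + 250) with 95% confidence intervals for the 28 other genes known as glucocorticoid-induced, ordered by poly IC against naive. Red marks genes called higher, blue genes called lower and grey genes not called. Most genes are coloured in poly IC against naive, whereas only Sesn1 is red in poly IC plus ethanol against poly IC.

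Relatives of the members were read from the same arrays. Of 9 other tested FKBP immunophilins, 0 were higher and 0 lower in poly IC plus ethanol against poly IC, with a median of 0.29. Fkbp4, which encodes FKBP52, the immunophilin that competes with FKBP51 in the receptor complex, read 3864.4 and 3227.7 in the poly IC plus ethanol pools, 4139.7 and 4719.6 in the poly IC pools and 5521.1 in the naive sample and was not called. Fkbp11 at -1.13 and Fkbp1b at -0.75 were lower in poly IC than in naive, and each call was lost without either poly IC pool (limma, adjusted p between 0.0598 and 0.154) and without the filter (limma, adjusted p of 0.0911 and 0.0557).

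Of 6 other tested annexins, 0 were called with ethanol. In poly IC against naive, 11.1% of all tested probe sets were called higher and 18.2% lower. Against naive, poly IC had Anxa2 at 0.47, Anxa6 at 0.72 and Anxa7 at 0.85 called higher and Anxa3 at -0.82 called lower, calls that were all lost without either poly IC pool (limma, adjusted p between 0.0892 and 0.153) and without the filter (limma, adjusted p between 0.0564 and 0.104). Fpr2, the receptor on which annexin A1 acts, read 22149.7 and 18312.2 in the poly IC plus ethanol pools, 23371.7 and 24524.3 in the poly IC pools and 1768.9 in the naive sample. It was 3.58 higher in poly IC than in naive (SE 0.17, limma, adjusted p = 9.7e-07), and the ethanol difference of -0.25 did not pass. Fpr2 is itself 1 of the genes in the neutrophil list, and the part of neutrophils in its result was not tested.

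Of 13 other tested clock genes, 1 was higher and 1 lower in poly IC plus ethanol against poly IC. The shares over all tested probe sets were 4.33% higher and 3.77% lower. Tef read 1779.2 and 1680.0 in the poly IC plus ethanol pools, 282.6 and 804.1 in the poly IC pools and 541.1 in the naive sample and was 1.40 higher (limma, adjusted p = 0.0403), a call held in 8 of 14 alternatives. It was lost without poly IC pool 1 (limma, adjusted p = 0.176), without the filter (limma, adjusted p = 0.132), without the trend (limma, adjusted p = 0.102), with an offset of 50 (limma, adjusted p = 0.0504), with median-centred arrays (limma, adjusted p = 0.0568) and with quantile normalization (limma, adjusted p = 0.0545). The poly IC pool 1 signal of Tef lay below the control level of its array. Bhlhe40, a repressor in the clock loop, fell by 0.81 (limma, adjusted p = 0.0368), a call lost without ethanol pool 2 (limma, adjusted p = 0.0598), poly IC pool 1 (limma, adjusted p = 0.193), poly IC pool 2 (limma, adjusted p = 0.172), the filter (limma, adjusted p = 0.103) or the trend (limma, adjusted p = 0.0966). Nfil3 was 2.99 higher in poly IC than in naive (limma, adjusted p = 1.11e-05), while Bhlhe40 fell by 1.57 and Nr1d2 by 1.29. The others called lower there were Arntl at -1.15 and Nr1d1 at -0.98. The Arntl call was lost without poly IC pool 2 (limma, adjusted p = 0.0884) or the filter (limma, adjusted p = 0.0707), and the Nr1d1 call without pool 1 (limma, adjusted p = 0.139) or pool 2 (limma, adjusted p = 0.0771), without the filter (limma, adjusted p = 0.12) or the trend (limma, adjusted p = 0.0519), and with quantile normalization (limma, adjusted p = 0.0717).

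Of 7 other tested genes of the SGK and AKT list, 0 were called with ethanol. After poly IC alone 3 were lower than in naive, Pdpk1 at -0.91, Akt1 at -0.89 and Pdk1 at -1.40. Of all tested probe sets, 18.2% were called lower in that comparison. Pdk1 encodes a pyruvate dehydrogenase kinase and is not an SGK and AKT pathway gene, so its call says nothing about that pathway. Without poly IC pool 2 the calls of Pdpk1 (limma, adjusted p = 0.078) and Akt1 (limma, adjusted p = 0.148) were lost, and that of Akt1 was also lost without the filter (limma, adjusted p = 0.0614), without the trend (limma, adjusted p = 0.0766) and with median-centred arrays (limma, adjusted p = 0.0573). Among TSC22 relatives, Tsc22d1 was 1.14 higher and Tsc22d4 fell by 0.89 in poly IC against naive, and both calls were lost without poly IC pool 2 (limma, adjusted p = 0.192 for Tsc22d1 and 0.0967 for Tsc22d4). The Tsc22d1 call was also lost without the filter (limma, adjusted p = 0.114) or the trend (limma, adjusted p = 0.0567). Neither was called with ethanol. Of the other steroid receptors only Esr1 was tested, and it was not called in any comparison.

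The macrophage label was checked against 13 macrophage marker genes, all 13 above the filter, with summed signals of 432218 and 403481 in the poly IC plus ethanol pools, 433738 and 487354 in the poly IC pools and 339172 in the naive sample. The sum hides members that moved in opposite directions. In poly IC against naive 3 of the 13 were higher (Cd14, Fcgr1 and Msr1) and 4 lower (Gata6, Lgals3, Mertk and Tgfb2). Of all tested probe sets, 11.1% were called higher and 18.2% lower there. The Mertk call was lost without the filter (limma, adjusted p = 0.0791) and with median-centred arrays (limma, adjusted p = 0.0555). It was also lost with quantile normalization (limma, adjusted p = 0.0874). Gata6, a factor of resident peritoneal macrophages, read 1169.4 and 1531.3 in the poly IC pools and 7217.7 in the naive sample. With ethanol 1 was lower than in poly IC, the Fc receptor gene Fcgr1, where 3.77% of all tested probe sets were called lower. These genes are named after their values were seen. Fcgr1 read 12016.0 and 9108.8 in the poly IC plus ethanol pools and 26224.6 and 33345.1 in the poly IC pools. B cell markers were also read in all groups, and 0 of the 14 stayed below the control level on every array. The filter was passed by 12 of the 14. The brightest in the naive sample were Ighm at 117527, Cd79b at 62099.9 and Ms4a1 at 58201.5, and the dimmest was Cr2 at 381.7. Signals of different probe sets are not comparable in level, so the share of B cells in the samples was not measured. Median signals per array lay between 769 and 902, and log2 profiles correlated at 0.964 between the ethanol pools and 0.974 between the poly IC pools. Centring each array on its median left 163 probe sets higher and 263 lower in poly IC plus ethanol against poly IC, where the main analysis had 323 higher and 281 lower. The Fkbp5 difference with that centring was 1.71 (limma, adjusted p = 0.00133).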

How the data were processed

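Per the labels, RNA of mouse peritoneal macrophages was labelled and hybridised to 5 MG-U74Av2 arrays, and the authors computed signals with Microarray Suite 5.0 and used Data Mining Tool 3.0. The deposited values are intensities: 1 linear signal per probe set and array, scaled by the authors to a target of 2500, per the labels. Detection calls were not used here. Groups were taken from sample titles. Names came from the platform annotation, with 10833 of 12422 non-control probe sets holding 1 symbol, 396 several and 1193 none, and none of those with several symbols held a member. Symbols were brought up to date by Entrez ID, and 10817 were found in the RefSeq table. Signals were analysed as log2(signal + 250) with limma 3.58.1 in R 4.3.3, with a mean per group over all 5 arrays and an intensity trend in the variance. P-values were adjusted by Benjamini-Hochberg over the 7453 probe sets above the filter. The code was tested on simulated data. The number of arrays limits precision. List genes named were the 3 with the largest moderated statistic in poly IC plus ethanol against poly IC or in poly IC against naive, and relatives of the members by value. The members and lists were chosen with earlier results of these data known. The control level of an array is the brightest of 19 unspiked control probe sets. Alternatives changed the offset, the filter, the scaling, the variance model, the arrays fitted and the replicate block.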

Additional observations from a re-analysis of the deposited data

How the results depend on the processing

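Over the single probe sets of the receptor and its targets, 339 of 372 alternative values kept their direction and side of the threshold, 19 lost a call, 2 gained one, both for Per1 in poly IC against naive, and 12 changed sign, all of them for Anxa1 or Sgk1 differences that were never called. For 79 list gene calls, 976 of 1106 alternative values kept the call, 130 lost it and 0 changed sign. Of tested probe sets, 604 were called in poly IC plus ethanol against poly IC, a count that became 273 without the filter and 75 without the variance trend, and 96 to 1049 with 1 array left out. The count in poly IC against naive, 2180, ran between 1361 and 2834 with 1 array left out, and that in poly IC plus ethanol against naive, 1118, was 739 without the filter, 672 without the trend and 867 to 1683 with 1 array left out. Fewer arrays give a less well measured spread, and the unfiltered test covers more probe sets. Of the 9 member probe sets, 1 to 3 were called with 1 array left out in poly IC plus ethanol against poly IC and 1 to 3 in poly IC plus ethanol against naive, where 1 was called without the trend and 1 with only the arrays compared. Sign changes for Anxa1 93038_f_at were -0.0061 with ethanol under median-centred arrays and -0.055 in poly IC against naive under quantile normalization, and with 1 array left out its ethanol difference ran from -0.13 to 0.31 and that against naive from -0.015 to 0.43. With 1 array left out the ethanol differences of Anxa1 93037_i_at ran from -0.55 to 0.055 and those of 161703_f_at from -0.054 to 0.037, that of 93037_i_at against naive from -0.11 to 0.49, and those of Sgk1 from -0.047 to 0.024 against poly IC and from -0.0051 to 0.066 against naive. The causes were not tested. The poly IC plus ethanol and poly IC pools share numbers, but the labels do not say that the numbers pair them, and deviations of same-numbered pools correlated at 0.041. With the replicate block 702 probe sets were called in poly IC plus ethanol against poly IC, and the same number of member probe sets, 3, as without it. Signals near the control level, as for Tsc22d3 and for Klf9 93527_at in poly IC, limit what can be measured.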
